A study of Mus musculus with 30 samples.

Results

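Vitamin A reaches adipose tissue as retinol bound to a plasma carrier and is handled there by a short chain of enzymes. Retinol is oxidised to retinal, retinal is either reduced back to retinol or oxidised irreversibly to retinoic acid, and retinoic acid binds nuclear receptors that switch genes on. White adipose tissue is a known store of retinyl esters and a source of circulating retinol-binding protein 4, and retinoids are known regulators of adipocyte differentiation. The 9 genes described here cover that chain: the carrier (*Rbp4*), a retinol-saturating enzyme (*Retsat*), the enzymes that interconvert retinol and retinal (*Dhrs3*, *Rdh10*), the retinal dehydrogenase family (*Aldh1a1*, *Aldh1a2*, *Aldh1a3*) with a rodent copy of its *Aldh1a1* member (*Aldh1a7*), and a receptor of retinoic acid (*Rarb*). They were picked out by gene symbol, and all 9 were found among the 55401 genes of the count table.

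The tissue was gonadal white adipose tissue (gWAT) of 30 female New Zealand Obese mice (NZO/HIBomDife), of which 15 were classed as diabetes-prone (DP) and 15 as diabetes-resistant (DR). Both groups shared strain, sex, a high-fat diet and the age at harvest, 10 weeks, and DR mice were the controls. A risk score had sorted the animals after 5 weeks of that diet, so the label foretells hyperglycaemia that had not yet set in. Each mouse gave 1 library, and the labels name no batch.

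Library totals lay between 28146906 and 29974243 counts, and 23854 to 24666 genes had at least 1 count per library. Levels below are counts per 1000000 counts of the library (CPM), the total being scaled by TMM, a factor that corrects for differences in library composition, and groups are given as mean ± SD (n = 15 each). *Adipoq*, the adipokine that defines adipocytes, stood at 953.7 ± 146.5 CPM in DP and 2050 ± 363.0 CPM in DR, while markers of the reproductive tract and ovary, which border this fat pad, summed to 4.66 to 10.6 CPM in DP and 3.68 to 9.66 CPM in DR. Markers were counted as higher or lower at an adjusted p under 0.05 in the edgeR test described below. That test called 28.2% of all genes tested higher and 27.3% lower. All 12 adipocyte markers examined were lower in DP gWAT, with summed levels of 18220 to 27170 CPM in DP and 26910 to 33760 CPM in DR. Of 12 macrophage markers 11 were higher (4274 to 6183 CPM in DP, 1658 to 3794 CPM in DR). Of 12 mesothelial markers 9 were lower in DP, and 8 without DR replicate 7, the library described below. With all libraries, 3 mesothelial markers did not pass, and their log2 fold changes were also below 0. All 8 endothelial markers were lower. Of 10 progenitor and fibroblast markers 6 were higher in DP and 1 lower (summed 4103 to 6646 CPM in DP, 3274 to 4601 CPM in DR). What part these shifts have in the differences below was not tested. The covariate fits given there use marker levels that themselves differ between DP and DR, so they cannot separate composition from group. In bulk tissue, fewer cells of a type and less RNA per cell cannot be told apart. The library of DR replicate 7 held liver transcripts: *Alb* stood at 4367 CPM there, against at most 23.6 CPM in DP mice and at most 36.5 CPM in the other DR mice. The comparisons of DP with DR below were therefore also computed without it.

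The comparison of DP with DR asked whether retinoid gene expression in gWAT differs between the classes while the mice are still normoglycaemic. *Rbp4*, *Retsat*, *Aldh1a1* and *Aldh1a2* fell in DP gWAT, *Aldh1a7* rose, and *Dhrs3*, *Rdh10*, *Aldh1a3* and *Rarb* did not pass an adjusted p of 0.05 in edgeR's quasi-likelihood test, with p-values adjusted by Benjamini-Hochberg over all genes tested (written below as the edgeR adjusted p). Thus 5 of 9 members passed, at a background of 55.5% of the 17482 genes tested, 28.2% higher and 27.3% lower. The members' share was close to that background, so the number of changes does not set these genes apart. Their median log2 fold change was -0.20, against -0.0056 over all genes tested. Without DR replicate 7 the counts were again 1 higher and 4 lower, with 55.2% of all genes tested called, and without DP replicate 6, which had the highest *Retsat*, *Dhrs3* and *Aldh1a1* of the DP mice, they were also 1 and 4.

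**Figure D1:**
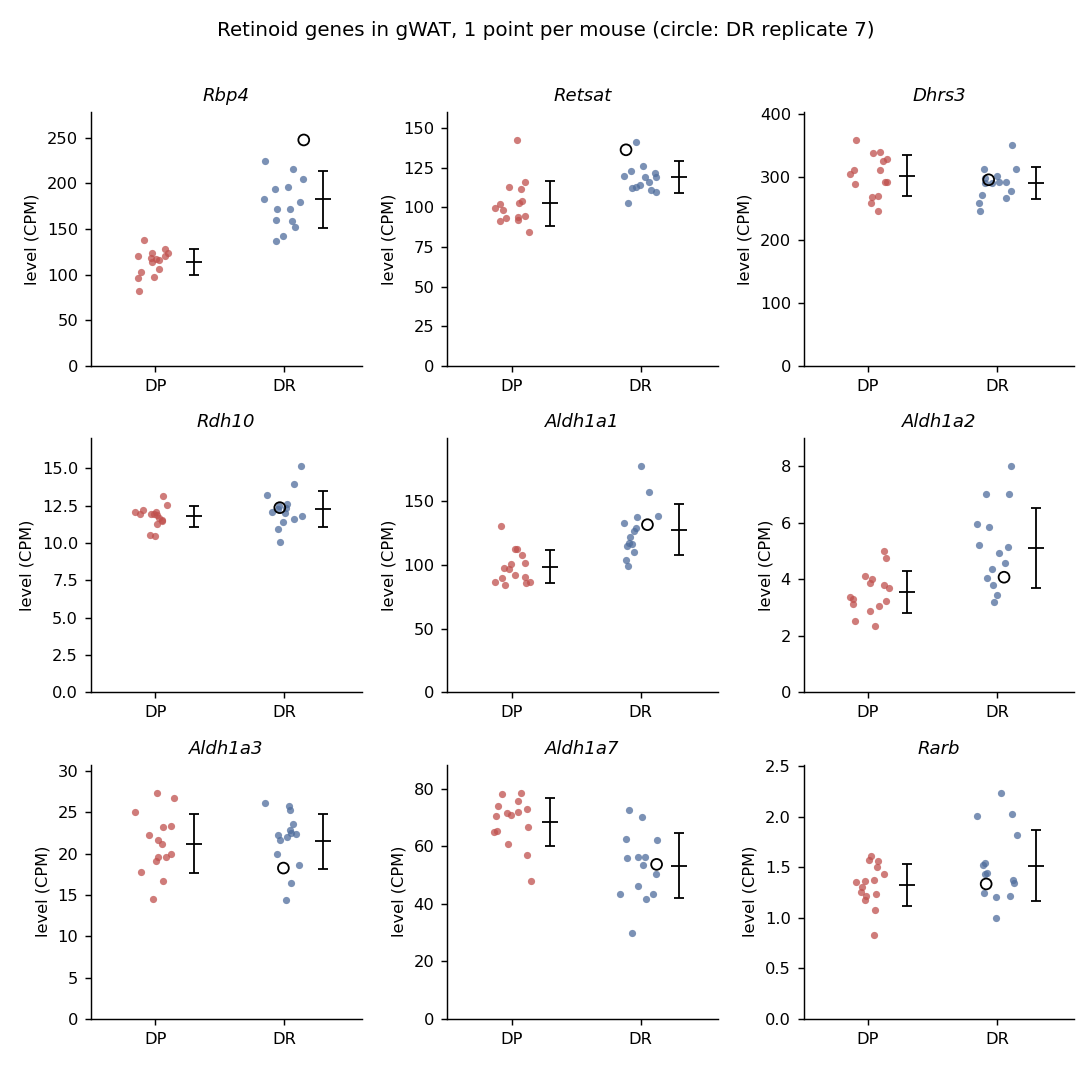
Level of each retinoid gene in CPM (y axis, from 0) in 15 DP mice (left, red) and 15 DR mice (right, blue), with 1 point per mouse, the mean and SD as a bar beside the points, and DR replicate 7 as an open circle. *Rbp4* nearly separates the groups, with 14 of 15 DP mice below the lowest DR mouse, while *Dhrs3*, *Rdh10* and *Aldh1a3* overlap over most of their range.

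*Rbp4* encodes the carrier that takes retinol through the blood. It lies on chromosome 19 (chr19:38116629-38125281, minus strand, GRCm38, protein-coding). Its level was 82.1 CPM in the lowest DP mouse, 117.0 CPM at the median and 138.5 CPM in the highest, against 137.1, 180.0 and 247.6 CPM in DR mice. The groups touched only at their edges, since 14 of 15 DP mice lay below every DR mouse and 14 of 15 DR mice lay above every DP mouse. The means were 113.7 ± 14.4 CPM in DP and 182.7 ± 31.4 CPM in DR, a log2 fold change of -0.68 ± 0.077 (SE), or 1.61-fold lower in DP (edgeR adjusted p = 1.12e-08). The highest DR value came from DR replicate 7, the library with liver transcripts, and liver is the main source of the circulating carrier. Without that mouse the next DR value was 224.6 CPM and the log2 fold change was -0.66 (edgeR adjusted p = 1.05e-08). *Ttr*, transthyretin, which binds the carrier in plasma and is another abundant liver product, reached 167.9 CPM in DR replicate 7 and at most 1.71 CPM in DP mice and 1.65 CPM in the other DR mice.

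Within the DP group, *Rbp4* was low where macrophage markers were high. Pearson's r between *Rbp4* and the mean log2 CPM of the 12 macrophage markers was -0.74 over 15 DP mice (permutation p = 0.00120, adjusted 0.0130 over 54 relations of 9 members with 3 marker lists in 2 groups), and Spearman's rho was -0.77 (permutation p = 0.00114, adjusted 0.0205). Without the 2 mice farthest from the median macrophage level, r was -0.63. In DR mice r was -0.58 (permutation p = 0.0232, adjusted 0.125) and rho was -0.65 (permutation p = 0.0109, adjusted 0.0740), so the relation did not pass there, and r was -0.78 without DR replicate 7. The relation of *Rbp4* with the adipocyte markers in DP mice passed by rank alone (rho 0.74, permutation p = 0.00217, adjusted 0.0293), with r at 0.67 (permutation p = 0.00660, adjusted 0.0509). The part of cell composition in the *Rbp4* difference cannot be told apart from the group, because both marker lists differed between DP and DR. With the macrophage level as a covariate its log2 fold change was -0.23 and with the adipocyte level -0.21, and neither passed (edgeR adjusted p = 0.478 and 0.914). By the same covariates the test called 1 and 0 of all 17482 genes, so the loss was shared by nearly all genes called without them.

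*Retsat* encodes retinol saturase, an endoplasmic reticulum enzyme that is induced during adipocyte differentiation. The gene is on chromosome 6 (chr6:72598475-72608425, plus strand, GRCm38). Its level ran over 84.5, 99.4 and 142.4 CPM (lowest, median, highest) in DP mice and 102.7, 119.1 and 141.3 CPM in DR mice. Most DP mice were low: 14 of 15 lay below the DR median and 9 lay below every DR mouse, but DP replicate 6 exceeded all DR mice. *Retsat* averaged 102.5 ± 14.02 CPM in DP and 118.9 ± 9.996 CPM in DR, which is 1.16-fold lower in DP (log2 fold change -0.21 ± 0.055, edgeR adjusted p = 0.00146). Without DP replicate 6, a choice made after the values were seen, the log2 fold change was -0.27 (edgeR adjusted p = 1.06e-05). In DP mice its r with the adipocyte markers was 0.77 (permutation p = 0.000980, adjusted 0.0130), but rho was 0.63 (permutation p = 0.0137, adjusted 0.0740) and r was 0.43 without the 2 mice farthest from the median, so that relation rests on those mice. Its exons share 650 bases with *Gm45053*, a gene model on the opposite strand.

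*Dhrs3* encodes a retinal reductase that returns retinal to retinol, and *Rdh10* encodes the main retinol dehydrogenase of the forward step. Neither passed the test between the groups. *Dhrs3* (chr4:144892827-144928209, plus strand) averaged 301.9 ± 32.6 CPM in DP, from 246.3 to 358.3, and 290.0 ± 25.4 CPM in DR, from 245.7 to 350.6 (log2 fold change 0.058 ± 0.050, edgeR adjusted p = 0.343). *Rdh10* (chr1:16105774-16133734, plus strand) averaged 11.8 ± 0.684 CPM in DP and 12.3 ± 1.20 CPM in DR (log2 fold change -0.061 ± 0.044, edgeR adjusted p = 0.242). *Rdh10* was the most even of the members among DP mice, with a coefficient of variation of 5.80%, but not among DR mice, where it was 9.73%, against 8.76% for *Dhrs3* and 8.41% for *Retsat*. In DR mice its r with the mesothelial markers was 0.75 (permutation p = 0.000960, adjusted 0.0130), but rho (0.64, permutation p = 0.0127) missed the threshold at an adjusted 0.0740.

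*Dhrs3* and *Retsat* moved together from mouse to mouse although only *Retsat* passed the test between the groups. Over 15 DP mice r was 0.78 (permutation p = 0.000300, adjusted 0.0216 over 72 pairs and groups) and rho was 0.80 (permutation p = 0.000680, adjusted 0.0490), and r was 0.68 without the 2 mice farthest from the median. Over the 14 DR mice without replicate 7, r was also 0.78 but the adjusted permutation p was 0.0594. There r was 0.51 without the 2 mice farthest from the median. No other pair of members passed in either group.

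*Aldh1a1*, *Aldh1a2* and *Aldh1a3* encode cytosolic dehydrogenases that turn retinal into retinoic acid. The *Aldh1a* genes, with *Aldh1a7* counted among them by name, did not move as a block. *Aldh1a1*, the form found widely in adult tissues, was lower in DP. It lies at chr19:20492715-20643465 on the plus strand. Its level was 84.7, 96.6 and 130.7 CPM (lowest, median, highest) in DP mice and 99.4, 126.7 and 177.4 CPM in DR mice. In 14 of 15 DP mice it was below the DR median, and 9 were below every DR mouse. The means of 98.5 ± 12.9 CPM in DP and 127.8 ± 20.2 CPM in DR gave a log2 fold change of -0.38 ± 0.071, 1.30-fold lower (edgeR adjusted p = 3.95e-05).

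*Aldh1a7*, a rodent copy of *Aldh1a1*, went the other way. It sits beside *Aldh1a1* on the opposite strand (chr19:20692953-20727562, minus strand). Its level was 47.8, 70.8 and 78.6 CPM in DP mice and 29.9, 53.8 and 72.8 CPM in DR mice. Here 14 of 15 DP mice lay above the DR median, and 5 lay above every DR mouse. *Aldh1a7* averaged 68.5 ± 8.35 CPM in DP and 53.2 ± 11.3 CPM in DR, 1.29-fold higher in DP (log2 fold change 0.36 ± 0.090, edgeR adjusted p = 0.00102). Of each 100 counts on the pair, *Aldh1a7* held 41.1 ± 4.43 in DP (32.0 to 46.6) and 29.6 ± 6.53 in DR (17.8 to 41.4).

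Because the pair is so alike, the split of reads between them may depend on the counting, which was not tested. The coding sequences, found as the longest open reading frame among the GENCODE M21 transcripts of each gene, were 1506 bases long in both genes and 92.0% identical. Their longest identical run was 100 bases. Of the 50-base stretches of *Aldh1a7*, 10.4% also occurred in *Aldh1a1*, and of its 100-base stretches only 0.0711% did. *Aldh1a2* and *Aldh1a3* were only 70.9% to 72.7% identical to the other family members and to each other, and shared none of their 50-base stretches. When the counts of *Aldh1a1* and *Aldh1a7* were summed as a single feature, the sum was 167 ± 15.2 CPM in DP and 181 ± 18.6 CPM in DR, a log2 fold change of -0.13 ± 0.048 (edgeR adjusted p = 0.0241, and 0.0319 without DR replicate 7). The log2 fold change of *Aldh1a1* alone was -0.38. How reads that fit both genes were assigned is not given in the sources used here, and its part in the opposite directions was not tested.

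The likeness extends to a stretch before a start of transcription, shown here because the genes are nearly alike there and yet differed in direction. In the RefSeq promoter table (GRCm38.p6), the window of the downstream *Aldh1a1* start was the better match to that of *Aldh1a7*, and the alignment reached 110 bases before the start and no farther. Over those 110 bases, 104 were identical with no gap. Capitals mark the 6 bases that differ. The *Aldh1a1* stretch is chr19:20601858-20601967 on the plus strand and the *Aldh1a7* stretch is chr19:20727557-20727666 on the minus strand.
Aldh1a1: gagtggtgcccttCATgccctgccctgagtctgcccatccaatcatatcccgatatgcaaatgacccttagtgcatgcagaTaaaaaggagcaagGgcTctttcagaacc
Aldh1a7: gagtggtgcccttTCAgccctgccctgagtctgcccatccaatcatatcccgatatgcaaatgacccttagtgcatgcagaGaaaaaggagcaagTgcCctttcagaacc

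**Figure D2:**
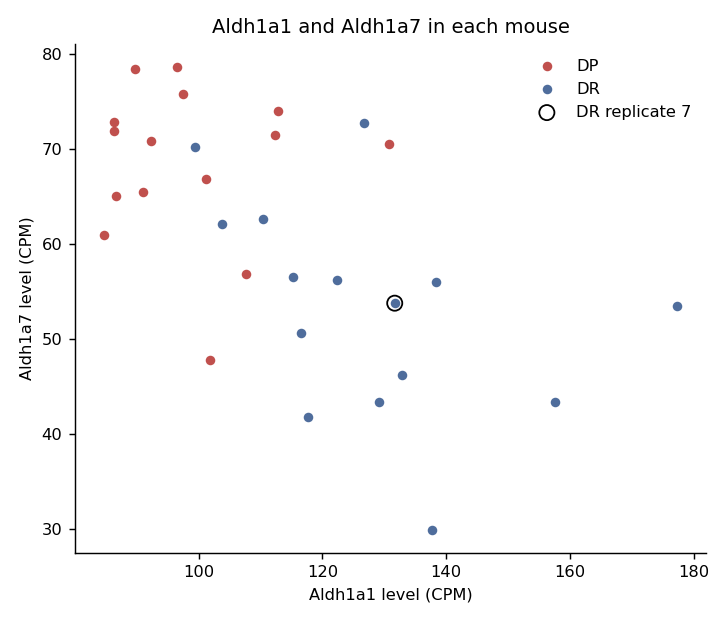
Level of *Aldh1a1* (x axis, CPM) against *Aldh1a7* (y axis, CPM) in each mouse, DP in red and DR in blue, with DR replicate 7 circled. Most DP mice lie to the upper left and most DR mice to the lower right, with some mice of each group among the other (DR replicate 9 among the DP points, DP replicate 4 low on the y axis), and *Aldh1a7* held 41.1 of each 100 counts on the pair in DP and 29.6 in DR.

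Within each group the pair showed no relation that passed. In DP mice r was -0.047 (permutation p = 0.867, adjusted 0.919), and in the 14 DR mice without replicate 7 it was -0.43 (permutation p = 0.128, adjusted 0.502).

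*Aldh1a2*, the form that makes most retinoic acid in the early embryo and is known from mesothelium, was lower in DP and scarce in both groups. It lies at chr9:71215789-71296243 on the plus strand. Its level was 2.35, 3.36 and 4.995 CPM in DP mice and 3.20, 4.93 and 7.99 CPM in DR mice, from 68 to 221 counts per library. Only 1 of 15 DP mice was above the DR median, and 7 DR mice were above every DP mouse. The mean was 3.54 ± 0.748 CPM in DP and 5.11 ± 1.41 CPM in DR, 1.44-fold lower in DP (log2 fold change -0.53 ± 0.12, edgeR adjusted p = 0.000580). It was also the most variable member, with a coefficient of variation of 21.1% in DP and 27.7% in DR.

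*Aldh1a2* followed the mesothelial markers in both groups. Mesothelium is the cell layer on the surface of the fat pad, and the list holds keratins, uroplakins and *Msln*. In DP mice r with the mean level of the list was 0.77 (permutation p = 0.000760, adjusted 0.0130) and rho was 0.79 (permutation p = 0.000790, adjusted 0.0205). In DR mice r was 0.89 (permutation p = 4e-05, adjusted 0.00216) and rho was 0.90 (permutation p = 3e-05, adjusted 0.00162), and without DR replicate 7 r was 0.95. Without the 2 mice farthest from the median, r was 0.67 in DP and 0.82 in DR. The mesothelial list itself was lower in DP, with summed levels of 61.6 to 171.4 CPM in DP and 98.3 to 286.1 CPM in DR. With the mesothelial level as a covariate the log2 fold change of *Aldh1a2* was -0.18 ± 0.086 and did not pass (edgeR adjusted p = 0.0807). Among all genes tested, 4309 were called higher and 3923 lower with this covariate. Because the mesothelial level differed between DP and DR, its part in the *Aldh1a2* difference cannot be told apart from the group. In that fit the other called members kept their direction and stayed under the threshold, but the log2 fold change of *Aldh1a1* was -0.23 and that of *Aldh1a7* 0.24, against -0.38 and 0.36 without the covariate (edgeR adjusted p = 0.00413 and 0.0321 with it).

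**Figure D3:**
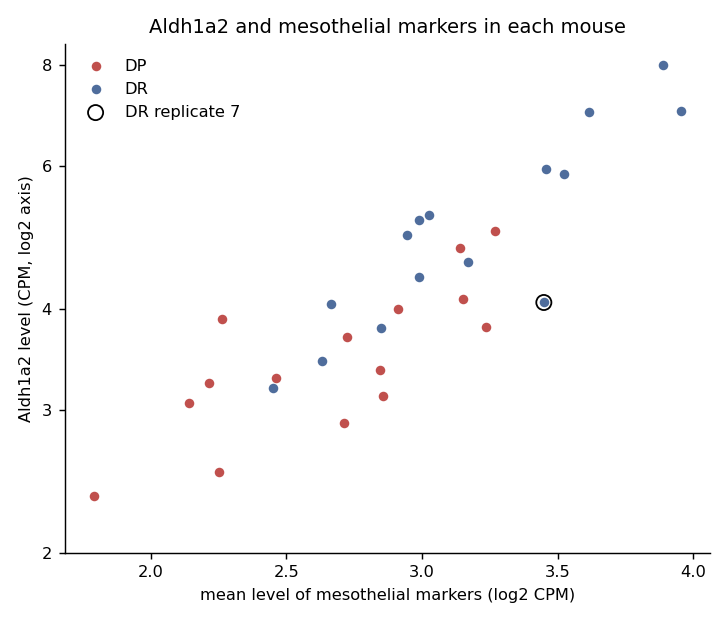
*Aldh1a2* level (y axis, CPM on a log2 axis) against the mean log2 CPM of 12 mesothelial markers (x axis) in each mouse, DP in red and DR in blue, with DR replicate 7 circled. The points of both groups rise together, with r of 0.77 in DP and 0.89 in DR.

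*Aldh1a3* (chr7:66390890-66427517, minus strand), another retinal dehydrogenase, showed no difference that the test could detect. It averaged 21.2 ± 3.60 CPM in DP, from 14.5 to 27.3, and 21.5 ± 3.37 CPM in DR, from 14.4 to 26.1 (log2 fold change -0.018 ± 0.085, edgeR adjusted p = 0.876). The ranges of the groups coincided almost wholly.

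**Figure D4:**
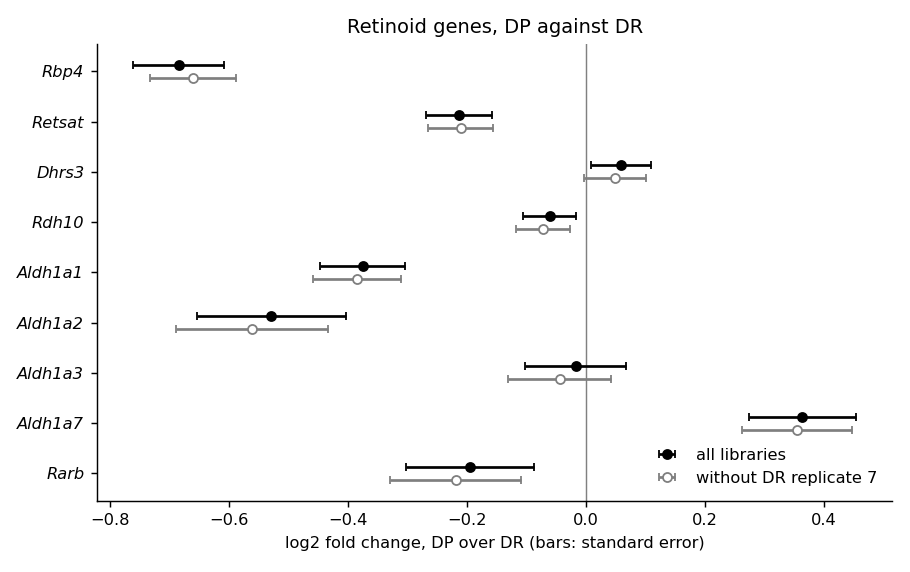
Log2 fold change of each retinoid gene, DP over DR (x axis), with its standard error, from all libraries (filled) and without DR replicate 7 (open). *Rbp4* at -0.68 and *Aldh1a2* at -0.53 are farthest below 0, *Aldh1a7* at 0.36 is the only member above 0 that passed the test, and leaving out DR replicate 7 moves each point by less than its error bar.

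*Rarb* encodes retinoic acid receptor beta, itself a classic target gene of retinoic acid. It was the scarcest member, with 25 to 65 counts per library. Its level was 0.827, 1.35 and 1.61 CPM in DP mice and 1.002, 1.43 and 2.23 CPM in DR mice. The groups overlapped, with 4 DR mice above every DP mouse. The mean was 1.32 ± 0.207 CPM in DP and 1.52 ± 0.352 CPM in DR, and the difference did not pass (log2 fold change -0.20 ± 0.11, edgeR adjusted p = 0.124, and 0.0925 without DR replicate 7). *Rarb* (chr14:16430839-16819156, minus strand) shares 1793 exon bases with *Top2b*, a topoisomerase gene on the other strand. *Top2b* stood at 89.4 ± 6.53 CPM in DP and 91.5 ± 6.03 CPM in DR, far above *Rarb*. Whether the counting used strand is not given in the sources used here, and the part of *Top2b* reads in the *Rarb* counts was not tested.

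A promoter of *Rarb* is shown because retinoic acid receptors are known to act on this gene from there. The RefSeq start used lies inside the gene span given above and not at the outer end of that span, chr14:16819156. The receptors bind pairs of short units in direct repeat. The unit AGGTCA, also read as AGTTCA, as GGGTCA or as GGTTCA, was searched for on both strands with 5, 2 or 1 bases between them, in RefSeq windows from 250 bases before to 50 after each start. Windows were found for 7 of the 9 members, and of these only *Rarb* held a match. It is spaced by 5 bases and spans positions -53 to -37 counted from the start. Such a repeat with spacing 5 occurred in 32 of 32851 windows (0.0974%), with spacing 2 in 0.268% and with spacing 1 in 0.222%. The stretch below covers chr14:16575477-16575576 on the minus strand (GRCm38.p6), the 100 bases before the start, with the repeated units in capitals.
Rarb: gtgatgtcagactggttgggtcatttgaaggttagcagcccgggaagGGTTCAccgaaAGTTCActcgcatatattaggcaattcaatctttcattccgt
A match is a description of letters and not of binding, and a window without a match says nothing of elements elsewhere.

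Levels were also ordered per kilobase of exon (FPKM from the CPM and GENCODE M21 exon lengths), which allows a rough comparison of genes. The length joins all annotated exons of a gene, whether used in this tissue or not, and the order depends on it. It was 4937 bases for *Aldh1a1* and 2066 for *Aldh1a7*. By counts alone *Aldh1a1* was the higher of the pair in every mouse, *Aldh1a7* holding at most 46.6 of each 100 in DP and 41.4 in DR. In DP mice *Dhrs3* led with 103.1 ± 11.1 FPKM, ahead of *Rbp4* with 84.7 ± 10.7 FPKM. In DR mice *Rbp4* led with 136.0 ± 23.4 FPKM, ahead of *Dhrs3* with 99.1 ± 8.68 FPKM. Each of these orders held in 13 of 15 mice of its group. In the middle of the DP order came *Aldh1a7* (33.2 ± 4.04 FPKM), *Retsat* (28.98 ± 3.96 FPKM) and *Aldh1a1* (19.95 ± 2.62 FPKM), with *Aldh1a7* above *Retsat* in 13 of 15 mice and *Retsat* above *Aldh1a1* in all 15. In DR mice *Retsat* (33.6 ± 2.83 FPKM) stood above *Aldh1a1* (25.9 ± 4.09 FPKM) in 14 of 15. There *Aldh1a1* and *Aldh1a7* (25.8 ± 5.48 FPKM) could not be ordered by FPKM, since *Aldh1a1* was higher in 8 of 15. *Aldh1a3*, *Rdh10*, *Aldh1a2* and *Rarb* filled the low end in this order in both groups, at 4.59, 2.83, 1.56 and 0.251 FPKM in DP and 4.65, 2.96, 2.26 and 0.288 FPKM in DR. Of these neighbours only *Rdh10* and *Aldh1a2* changed places, in 1 DR mouse.

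The rest of the retinoid pathway was described by lists of known genes, whose counts stand beside the same backgrounds of 28.2% higher and 27.3% lower. Among 9 genes of retinoid binding and transport, 3 had enough counts for a test, and 2 of them were higher and 1 lower in DP (median log2 fold change 0.39). *Stra6l*, a membrane receptor for the RBP4-retinol complex known from liver and intestine, stood at 13.3 ± 2.90 CPM in DP and 7.21 ± 3.57 CPM in DR, 1.84-fold higher in DP (edgeR adjusted p = 0.000229). Its highest DR value, 15.1 CPM, came from DR replicate 7, against 11.3 CPM for the next, and without that mouse the log2 fold change was 0.99 instead of 0.88. *Fabp5*, a fatty acid-binding protein that also carries retinoic acid, rose to 278.8 ± 21.8 CPM in DP against 212.3 ± 22.7 CPM in DR (edgeR adjusted p = 4.47e-08). *Rbp7*, a cellular retinol-binding protein of adipose tissue, was 45.7 ± 7.84 CPM in DP and 55.7 ± 6.66 CPM in DR, 1.22-fold lower in DP (edgeR adjusted p = 0.00161). *Stra6*, the other known RBP4 receptor, was near the floor in both groups, with 0 to 8 counts per library.

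The enzymes that store and release retinyl esters or cleave carotenoids were lower as far as they were measured. All 5 tested genes of a list of 7 were lower in DP, with a median log2 fold change of -0.31, and 4 were lower without DR replicate 7. All 12 adipocyte markers were lower in DP too, and the part of that general fall in these genes was not tested. *Lipe*, hormone-sensitive lipase, which also splits retinyl esters, was 1075 ± 140.9 CPM in DP and 1663 ± 176.7 CPM in DR (1.55-fold lower, edgeR adjusted p = 1.14e-09), and it is a member of the adipocyte list too. *Dgat1*, an acyltransferase that can esterify retinol, was 1.20-fold lower and *Lpl*, lipoprotein lipase, 1.12-fold lower (edgeR adjusted p = 2.7e-06 and 0.000604). *Bco1*, which cleaves carotene to retinal, had at most 33 counts per library and was 1.54-fold lower (edgeR adjusted p = 0.0171). Its highest DR value, 1.19 CPM, came from DR replicate 7, against 0.724 CPM for the next. Without that mouse *Bco1* was 1.41-fold lower (edgeR adjusted p = 0.0372). *Bco2* passed only with DR replicate 7, its log2 fold change being -0.31 with that mouse and -0.25 without it (edgeR adjusted p = 0.0350 and 0.0643). *Lrat*, the acyltransferase of retinol storage in liver, had 0 to 32 counts and was not tested.

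Among 15 other oxidoreductases of retinol and retinal, 11 were tested, and 4 were higher, 3 lower and 4 did not pass (median log2 fold change 0.010). *Dhrs9*, a retinol dehydrogenase also known as a marker of regulatory macrophages in humans, had the largest change on these lists. Its level was 20.5 to 42.6 CPM in DP mice and 3.97 to 20.8 CPM in DR mice, with means of 29.4 ± 6.89 and 11.9 ± 4.96 CPM, 2.48-fold higher in DP (edgeR adjusted p = 1.57e-07). *Akr1b8*, an aldo-keto reductase that acts on retinal, and *Rdh11*, a retinal reductase, rose 1.43-fold and 1.31-fold (edgeR adjusted p = 2.78e-09 and 4.06e-07). *Dhrs4*, a retinal reductase of peroxisomes, was 30.95 ± 2.67 CPM in DP and 42.0 ± 3.47 CPM in DR (edgeR adjusted p = 2.21e-09). Its level was 26.7 to 34.9 CPM in DP mice and 35.7 to 46.9 CPM in DR mice. Ranges without overlap were not particular to *Dhrs4*. They were also found for *Adipoq* and, with DP above DR, for several macrophage markers. How common they are among all genes tested was not computed, so nothing is drawn from them. *Adh1*, alcohol dehydrogenase, was 80.7 ± 11.97 CPM in DP and 120.0 ± 35.0 CPM in DR, where DR replicate 7 alone stood at 233.7 CPM, and its log2 fold change was -0.57 with that mouse and -0.49 without it. *Rdh13* passed with DR replicate 7 (edgeR adjusted p = 0.0429) and not without it (0.0944).

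**Figure D5:**
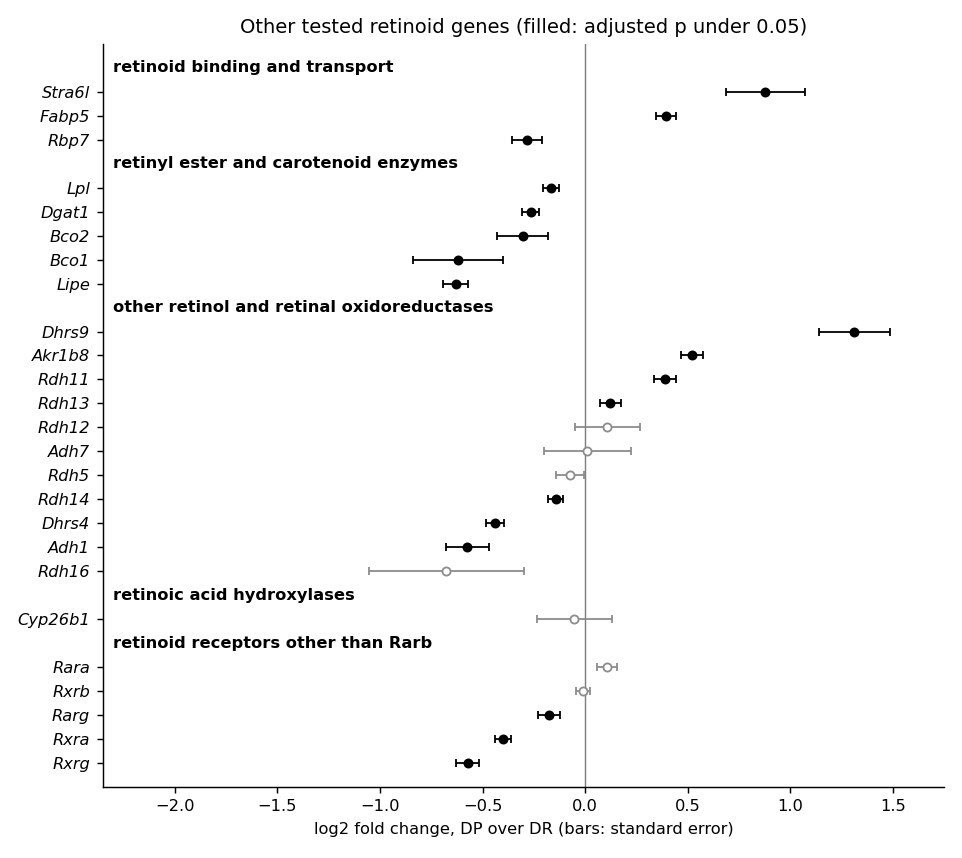
Log2 fold change with standard error, DP over DR (x axis), of the other tested retinoid genes by list, filled where the adjusted p was under 0.05. All 5 ester and carotenoid enzymes lie below 0, binding and oxidoreductase genes lie on both sides, and *Dhrs9* at 1.31 lies farthest to the right.

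Of the enzymes that clear retinoic acid, only *Cyp26b1* was tested. It averaged 4.78 ± 1.5 CPM in DP and 4.96 ± 1.74 CPM in DR and did not pass (log2 fold change -0.053 ± 0.18, edgeR adjusted p = 0.826). Of 5 other receptors 3 were lower in DP and 2 did not pass (median log2 fold change -0.18). *Rxra* and *Rxrg*, partners of the retinoic acid receptors and of PPAR gamma, were 1.32-fold and 1.49-fold lower in DP (edgeR adjusted p = 1.26e-09 and 2.05e-09), and *Rarg* was 1.13-fold lower (edgeR adjusted p = 0.00730). *Rara* at 31.4 ± 2.62 CPM in DP and 29.2 ± 2.95 CPM in DR did not pass (edgeR adjusted p = 0.0586), nor did *Rxrb*.

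Of 8 textbook target genes of retinoic acid, 3 were tested, *Cyp26b1* among them, and their median log2 fold change was 0.088. *Tgm2*, tissue transglutaminase, was 705.2 ± 140.0 CPM in DP and 581.4 ± 198.3 CPM in DR and passed only without DR replicate 7 (edgeR adjusted p = 0.0624 with that mouse and 0.0396 without it). *Rarres1*, named for its response to retinoids, was 33.0 ± 5.93 CPM in DP and 31.1 ± 5.20 CPM in DR and did not pass (log2 fold change 0.088 ± 0.086, edgeR adjusted p = 0.398).

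The genes whose levels followed each member most closely were named from Pearson's r of deviations from the group mean over 29 mice, without DR replicate 7, among 12768 genes, as a description with no test. *Rbp4* was followed by *Orm1* (0.89), *Retn* (0.88) and *Gcdh* (0.87), an acute-phase glycoprotein, the adipokine resistin and a mitochondrial dehydrogenase. *Retsat* was followed by *Ephx2* (0.91), *Acadm* (0.89) and *Etfa* (0.88), which include fatty acid oxidation genes, and *Dhrs3* by *Htra2* (0.87), *Pck1* (0.84) and *Plin5* (0.82). For *Aldh1a2* the nearest genes were *Gpm6a* (0.88), *Upk3b* (0.87) and *Rspo1* (0.85), and the leading pair belongs to the mesothelial list. *Aldh1a3* was followed by *Lrrn4cl* (0.81), *Pamr1* (0.79) and *Pi16* (0.75), of which *Pi16* is on the progenitor and fibroblast list. *Aldh1a1* was followed by *Tinagl1*, *Pxdc1* and *Tprgl* (0.83 to 0.85), and *Aldh1a7* by *Chchd10*, *Clstn3* and *Cmpk1* (0.81 to 0.87). For *Rdh10* and *Rarb* the nearest genes reached only 0.67 (*Smpd5*) and 0.65 (*Smc1a*).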

How the data were processed

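gWAT gene expression of 15 DP and 15 DR mice was analysed. The authors deposited estimated counts for each gene, made with StringTie 2.1.3b on GRCm38.p6 per the submitters' processing notes, and 0 count columns were left unused. Which aligner, annotation release and strand setting were used, and how multi-mapping reads were treated, is not given in the sources used here. The members and gene lists were chosen with earlier results of these data known. The labels give no pairing, and replicates were numbered by deposition order. No library pair agreed within sampling noise (chi-square divided by its degrees of freedom was at least 7.42 in 435 pairs). Whether reads were counted as unique molecules is not given, and p-values measure the spread between mice.

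Counts, whole numbers as deposited, went into edgeR 4.0.16 (R 4.3.3) with TMM factors (filterByExpr with minimum count 10, quasi-likelihood F test, group only, Benjamini-Hochberg over 17482 genes, threshold 0.05). SE is the log2 fold change divided by the root of F. Log2 CPM used a prior count of 0.5. Relations used two-sided permutation tests with 100000 resamples (scipy 1.17.1). GENCODE M21 supplied positions and exon lengths. In simulated DP and DR counts for the 17482 genes, edgeR recovered 16 of 50 genes given a log2 change of 0.2, 33 of 50 at 0.4, 45 of 50 at 0.7 and 48 of 50 at 1, with 5.33% of calls false. Only 50 genes per size were changed there, while 55.5% of genes were called in the data. These rates therefore need not hold for the data. Named genes were all 9 members, up to 4 genes per list with the smallest p, a set of well-known retinoid genes, and the 3 nearest genes of each member with a mean count of at least 50. *Adh1*, *Rdh13*, *Bco2*, *Rxrb*, *Tgm2*, *Rarres1*, *Top2b* and the markers *Adipoq* and *Alb* fall outside this rule and were chosen after their values were seen. A few listed genes are not reported here. Alternatives were RLE, upper quartile or no composition factors, no filter, mean CPM or FPKM over 1, DESeq2 1.42.0, limma-voom (3.58.1) with quality weights, library subsets and covariates, including 7 surrogate variables (sva 3.50.0). Leaving out DP replicate 6 was chosen after the data were seen.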

Additional observations from a re-analysis of the deposited data

How the results depend on the processing

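The counts of 1 higher and 4 lower members were the same under the alternatives run except 4. In the higher-numbered libraries alone and with the mesothelial covariate 3 members were lower, *Aldh1a2* missing the threshold, and with the macrophage or the adipocyte covariate both counts were 0. The macrophage and adipocyte covariates also left 1 and 0 of all 17482 genes called by edgeR, with 2253 and 1092 genes and 0 members at an unadjusted p under 0.05, and both levels differ between DP and DR. With the macrophage covariate the log2 fold changes of *Dhrs3* (-0.058), *Rdh10* (0.095) and *Aldh1a3* (0.012) took the other sign, and with the adipocyte covariate those of *Retsat* (0.11), *Rdh10* (0.013) and *Aldh1a3* (0.14). *Aldh1a3* also changed sign with no composition factor (0.011), library number (0.00088), surrogate variables (0.040) or the mesothelial level (0.050) as covariates, and *Dhrs3* in the lower-numbered libraries alone (-0.014), and none of these passed the threshold. *Aldh1a7* reversed only when summed with *Aldh1a1* (-0.13). In the higher-numbered libraries alone, with fewer mice, *Aldh1a2* stood at -0.43 (edgeR adjusted p = 0.0506). With surrogate variables *Aldh1a1* (-0.25), *Aldh1a2* (-0.33) and *Aldh1a7* (0.21, edgeR adjusted p = 0.0490) passed at over 1.5 times smaller values. A filter on mean FPKM over 1 leaves *Rarb* out. No paired analysis was possible because the replicate numbers follow deposition order. *Rarb* (25 to 65 counts) and *Aldh1a2* (68 to 221 counts) are the members that depth limits most. The cause of the other shifts was not tested.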
